A study of Mus musculus with 16 samples.

Results

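The genes of the mouse major histocompatibility complex (MHC, named H2 in the mouse) and of antigen processing were described in livers and liver tumours of mice lacking Axin1 in hepatocytes. The members were all rows of the expression table whose annotated symbol starts with H2-, plus B2m, Tap1, Tap2, Tapbp, Psmb8, Psmb9, Psmb10, Cd74, Ciita, Nlrc5 and Erap1. The rule used names and no measured value, and it took 50 of 23279 genes, each with 1 probe set. By role, 27 were class I heavy chains or class I like genes and 13 were class II chains or their partners. A further 9, called processing genes below, were genes of class I peptide supply and loading, the light chain B2m and the regulator Nlrc5. The remaining member, H2-Ke6, lies in the locus but encodes a hydroxysteroid dehydrogenase and no MHC protein. The mutant mice were the offspring of Axin1 fl/fl mice and mice with the Cre recombinase driven in embryonic hepatocytes (Alfp-Cre), so that liver cells not descended from them were not targeted by the Cre. RNA from whole tissue was hybridised to 16 arrays, all from male mice of 16 months: 3 livers of mice without the deletion (controls 10, 11 and 12), 5 non-tumoral livers next to a tumour in mice with the deletion (adjacent 81, 121, 123, 124 and 1931), and 8 tumours of 6 mice with the deletion. Mouse 121 gave 3 tumours (121, 121_2 and 121_3), which were averaged before any group value, and mice 81, 90, 93, 123 and 124 gave 1 tumour each. Mice 81, 121, 123 and 124 gave both adjacent liver and tumour, and whether adjacent 1931 and tumour 93 share a mouse is not stated in the labels. The labels do not give the strain, the H2 haplotype or the exact genotype of the controls.

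Class I molecules sit on nearly all nucleated cells and show peptides cut in the cytosol to CD8 T cells and natural killer cells, in a complex with beta-2 microglobulin (B2m). The peptides are cut by the proteasome, pumped into the endoplasmic reticulum by the transporter Tap1 and Tap2, trimmed by Erap1 and loaded with the help of Tapbp, and these genes are induced by interferon and by the transactivator Nlrc5. Class II molecules are made mainly by dendritic cells, B cells and macrophages, Kupffer cells of the liver included, under the transactivator Ciita. They travel with the invariant chain Cd74 to endosomes, where H2-DM exchanges a remnant of Cd74 for antigenic peptide and H2-O restrains H2-DM. In whole tissue, fewer cells of a type and less RNA per cell cannot be told apart.

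The letters upstream of the start sites are shown for both gene classes because the members were compared by class. RefSeq windows on GRCm38.p6, running from 250 bases before to 50 bases after each start, matched 37 of the 50 members. Both strands were searched for letters of the class II X box (AACNGATG), the Y box (ATTGG) and the interferon-stimulated response element (ISRE, GAANNGAAA). A kappaB site (GGGNNTTCC) and an interferon gamma activated site (GAS, TTCNNNGAA) were searched too. These short patterns were set after longer ones had been searched. Among 27025 windows, 1 per gene, 2.33% held the X letters and 37.9% the Y letters. The ISRE letters stood in 7.56%, the kappaB letters in 5.72% and the GAS letters in 8.47%. The X letters stood in 4 of 8 class II windows (H2-DMb1, H2-DMb2, H2-Eb1 and H2-Eb2) and the Y letters in 7 of them. Of 21 class I windows, 1 held the X letters (H2-M10.4), 7 the ISRE letters (H2-K1, H2-D1, H2-Q4, H2-Q7, H2-Q10, H2-M3 and H2-M2), 5 the kappaB letters (H2-K1, H2-D1, H2-Q4, H2-Q7 and H2-M2) and 18 the Y letters. None of the class II windows held the ISRE letters, and 2 of 8 held the kappaB letters (H2-Oa and H2-Aa), a share of 25% beside 23.8% in class I. The GAS letters stood in 2 of 21 class I windows, 1 of 8 class II windows and 1 of 7 processing windows. Of these 7 processing windows, 4 held the Y letters and 0 the X, ISRE or kappaB letters. The 160 bases before the first listed start of 3 class II and 3 class I genes are printed from 5′ to 3′ on each gene's strand. For H2-K1 this stretch lies within the annotated gene (chr17:33996012-34000619). For H2-Q7 it runs past the annotated start of the gene at 35439140. Capitals mark the X and Y letters in the class II genes and the ISRE and kappaB letters in the class I genes, in either orientation, and no capital stretch overlaps another. The kappaB match of H2-Aa is left in lower case.
H2-Aa: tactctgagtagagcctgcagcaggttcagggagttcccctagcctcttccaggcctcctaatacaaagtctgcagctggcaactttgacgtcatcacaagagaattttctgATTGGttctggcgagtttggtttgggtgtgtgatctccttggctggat
H2-Eb1: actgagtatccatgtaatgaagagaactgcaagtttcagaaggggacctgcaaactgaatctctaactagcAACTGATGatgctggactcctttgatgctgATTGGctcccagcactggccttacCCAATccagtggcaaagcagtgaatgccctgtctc
H2-DMb1: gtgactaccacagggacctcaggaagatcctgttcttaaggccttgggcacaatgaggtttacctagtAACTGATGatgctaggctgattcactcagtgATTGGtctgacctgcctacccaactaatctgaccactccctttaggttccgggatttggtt
H2-K1: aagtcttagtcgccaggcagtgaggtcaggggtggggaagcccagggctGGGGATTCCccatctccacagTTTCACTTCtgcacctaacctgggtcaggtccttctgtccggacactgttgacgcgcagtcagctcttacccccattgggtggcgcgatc
H2-Q7: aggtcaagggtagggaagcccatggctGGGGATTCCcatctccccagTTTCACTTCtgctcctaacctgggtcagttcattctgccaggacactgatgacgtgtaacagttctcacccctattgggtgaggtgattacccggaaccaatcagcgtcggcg
H2-Q10: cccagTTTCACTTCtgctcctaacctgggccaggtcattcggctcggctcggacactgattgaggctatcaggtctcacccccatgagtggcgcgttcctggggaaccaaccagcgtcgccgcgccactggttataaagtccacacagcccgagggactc
These lie at chr17:34287824-34287983 (H2-Aa, minus strand), chr17:34305707-34305866 (H2-Eb1, plus strand), chr17:34153031-34153190 (H2-DMb1, plus strand), chr17:34000348-34000507 (H2-K1, minus strand), chr17:35438995-35439154 (H2-Q7, plus strand) and chr17:35469929-35470088 (H2-Q10, plus strand). Over the whole window, from 250 bases before to 50 bases after the start, H2-Q10 holds the ISRE letters without the kappaB letters, whereas H2-K1 and H2-Q7 hold both. The printed stretch of H2-Q10 begins too close to its ISRE letters to show this by itself. A match describes the reference letters, and the alleles of these mice were not read.

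Values are log2 expression levels as deposited, from 1.47 to 12.85, with array medians from 4.37 to 4.50 and a median of 4.43 over all values. Axin1 measured 5.07 to 5.48 on the 3 control arrays and 3.90 to 4.81 on the 13 arrays of deleted mice, so that the groups did not overlap. The 9 hepatocyte markers averaged 11.64 to 11.98 over all arrays. Of the 50 members, 25 lay above 4.43 on every array and 17 lay below it on every array, among them 10 class I genes of the M region, H2-Q2, H2-T3 and 5 class II genes (H2-Ea, H2-Eb2, H2-Oa, H2-Ob and H2-Pb). The number of arrays limits the precision throughout. Group differences come from limma fitted over all 23279 genes with Benjamini-Hochberg adjustment, and a gene is called changed only at an adjusted p under 0.05.

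No member was called in any comparison. In tumours against adjacent livers 0 of 50 members passed, where 0.142% of all genes were called higher and 0.0129% lower. In tumours against controls 0 of 50 passed, where 0.0129% of all genes were called in each direction. In adjacent livers against controls 0 of 50 passed, and 0% of all genes were called. At an unadjusted p under 0.05, 10 of 50 members lay past the limit in tumours against adjacent livers, against 15.3% of all genes. They were 7 with higher levels in tumours (Cd74, H2-Aa, H2-Ab1, H2-Eb1, H2-Oa, H2-T10 and H2-T22) and 3 with lower ones (Erap1, H2-Ke6 and H2-Ob), where all genes gave 6.95% and 8.32%. In tumours against controls the count was 7 of 50, against 12.5% of all genes. All 7 were higher (5.65% of all genes) and 0 lower (6.88%). In adjacent livers against controls it was 1 of 50, H2-M10.1, against 4.55% of all genes, with the 1 member higher (1.61%) and 0 lower (2.94%). Differences above 0, of any size, were seen in 30 of 50 members in tumours against adjacent livers, 32 in tumours against controls and 29 in adjacent livers against controls, where all genes gave 44%, 42.2% and 48.5%.

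The class II chains H2-Aa, H2-Ab1 and H2-Eb1 and their chaperone Cd74 lay above every control in 7 of the 8 tumours, and the adjacent liver of mouse 121 reached tumour levels too. None of these differences passed the adjusted threshold. H2-Aa, the alpha chain of the I-A molecule, measured 7.03, 7.90 and 5.62 in controls 10, 11 and 12. The adjacent livers 81, 121, 123, 124 and 1931 gave 6.65, 9.49, 6.51, 7.19 and 6.94, and the tumours had a lowest value of 7.30, a median of 8.69 and a highest value of 9.37. Here and below, lowest, median and highest tumour are values by mouse, over 6 mice, with the 3 tumours of mouse 121 averaged. Adjacent 121 was therefore above all tumours, the other 4 adjacent livers were below all 8 tumours, and control 11 overlapped only with tumour 93. The mean was 6.85 ± 1.15 (SD, n = 3) in controls, 7.35 ± 1.22 (SD, n = 5) in adjacent livers and 8.54 ± 0.68 (SD, n = 6 mice) in tumours. Tumours minus adjacent livers gave 1.19 (SE 0.53, 95% interval 0.06 to 2.31, adjusted p = 0.301 by limma), a fold of 2.27. The tumour minus control difference was 1.69 (SE 0.62, adjusted p = 0.274 by limma).

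H2-Ab1, the beta chain that pairs with H2-Aa, measured 8.08, 8.71 and 7.04 in the controls. The adjacent livers, in the same order of mice, gave 7.79, 10.14, 7.30, 8.06 and 7.53, and the tumours had a lowest value of 8.32, a median of 9.31 and a highest value of 9.96. As for H2-Aa, adjacent 121 was the highest of all arrays and tumour 93 lay below control 11. The tumour minus adjacent difference was 1.06 (SE 0.46, adjusted p = 0.284 by limma) and the tumour minus control difference 1.28 (SE 0.54, adjusted p = 0.341). H2-Eb1, the beta chain of the I-E molecule, measured 6.29, 6.72 and 5.89 in the controls, 6.11, 8.20, 5.95, 6.19 and 6.48 in the adjacent livers, and 6.42, 7.50 and 8.29 as the lowest, median and highest tumour. Tumour 81 alone lay above adjacent 121, and tumour 93 lay below adjacent 1931. The tumour minus adjacent difference was 0.88 (SE 0.39, adjusted p = 0.298 by limma) and the tumour minus control difference 1.16 (SE 0.45, adjusted p = 0.306). H2-Ea, annotated as a transcribed pseudogene in the reference, measured 2.69 to 2.98 on all 16 arrays, below the median of all values.

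Cd74, the invariant chain, measured 8.37, 8.88 and 7.46 in the controls. The adjacent livers gave 8.21, 10.64, 7.61, 8.21 and 8.09, and the tumours had a lowest value of 8.52, a median of 9.72 and a highest value of 10.31. All 8 tumours lay above the adjacent livers of mice 81, 123, 124 and 1931 and none above that of mouse 121. For Cd74 tumours minus adjacent livers gave 1.09 (SE 0.47, 95% interval 0.08 to 2.09, adjusted p = 0.284 by limma), and the tumour minus control difference was 1.40 (SE 0.55, adjusted p = 0.307). Adjacent livers and controls differed by 0.32 for Cd74 (SE 0.57, adjusted p = 0.999) and by 0.50 for H2-Aa (SE 0.64, adjusted p = 0.999). Without adjacent 121 these differences were -0.20 for Cd74 and -0.03 for H2-Aa. The sign was opposite to the main fit in 2 of 23 alternative fits for each gene. For H2-Aa the lowest value, -0.11, came without control 12, so that the sign rested on single samples.

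**Figure D1:**
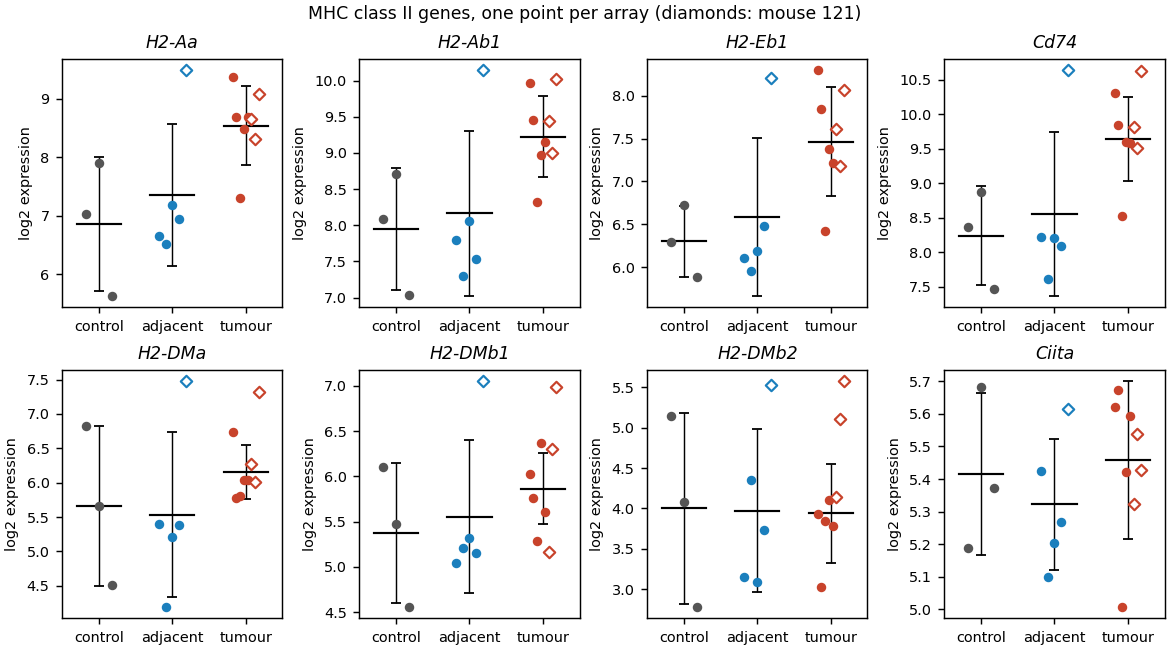
Log2 expression (vertical axis) of class II genes in 3 control livers, 5 adjacent livers and 8 tumours, 1 point per array, with diamonds for mouse 121, a bar for the mean over mice and whiskers for the SD. For H2-Aa, H2-Ab1 and Cd74 the adjacent liver of mouse 121 sits above the other 4 adjacent livers and level with the upper tumours, as at 10.64 for Cd74.

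The adjacent liver of mouse 121 stood apart from the other 4. Over the 5 adjacent livers the SD of Cd74 was 1.19, higher than for 99.8% of all genes, and those of H2-Aa, H2-Ab1, H2-Eb1 and H2-DMb1 stood at the percentiles 99.8, 99.7, 99.3 and 99.1. Over the other 4 livers the SD of Cd74 was 0.29. Without adjacent 121 the tumour minus adjacent difference was 1.72 for H2-Aa (SE 0.41, adjusted p = 0.0812 by limma), 1.56 for H2-Ab1 (SE 0.33, adjusted p = 0.0635), 1.28 for H2-Eb1 (SE 0.29, adjusted p = 0.0754) and 1.61 for Cd74 (SE 0.32, adjusted p = 0.0591). These larger differences still missed the threshold, which 25 genes in all (0.107%) passed in that fit. Without this liver 5 members were higher in tumours with no overlap (Cd74, H2-Aa, H2-Ab1, H2-DMa and H2-T22), which is 10% of the 50 where all genes gave 2.41%, and 1 did not overlap in the lower direction (Erap1; 2.37% of all genes). At an unadjusted p under 0.05, 12 of 50 members were higher, against 7.1% of all genes. With adjacent 121 kept, 0 members lay higher without overlap, against 1.12% of all genes. These members were named after their values were seen. Adjacent 121 was singled out by its high values in the same class II genes, so that leaving it out raises their differences by construction. The counts without it are therefore a description and no separate support, and the tumours of mouse 121 stayed in that fit.

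**Figure D2:**
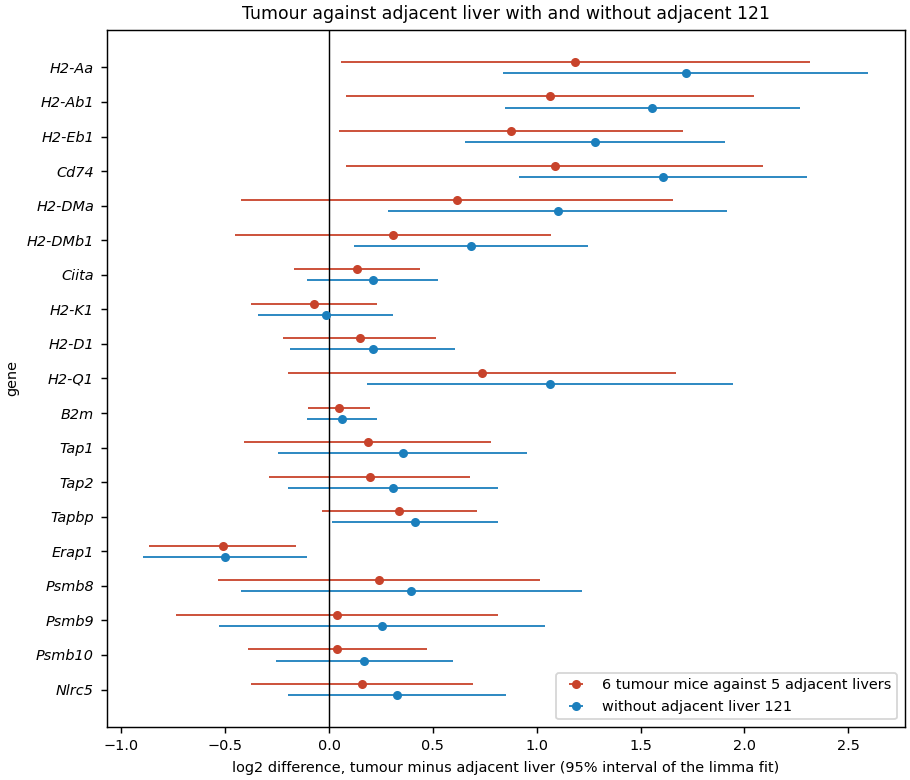
Log2 difference, tumour minus adjacent, of class II and other members with all 5 adjacent livers and without that of mouse 121, each with its 95% interval from the fit over all genes. The value for Cd74 is 1.09 with all livers and 1.61 without that of mouse 121.

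Adjacent 121 exceeded all 3 controls and the 4 other adjacent livers in 19 of 50 members, where 8.24% of all genes did so, and lay below all of them in 2, where 13.3% did. By class these were 9 of 13 class II genes, 6 of 27 class I genes and 4 of 9 processing genes. Other lists were also high in this liver. The 15 measured T and NK cell markers averaged 5.11 in adjacent 121 and 4.08 to 4.33 in the other adjacent livers, against 4.22 to 4.38 in controls and 4.02 to 5.06 in tumours, with Cd4 and Ncr1 below the median of all values on every array. The 13 macrophage and Kupffer cell markers averaged 7.26 in adjacent 121 against 5.87 to 6.58 in the other adjacent livers, 5.58 to 8.82 in controls and 5.40 to 7.16 in tumours. The 13 genes induced by interferon gamma outside the MHC averaged 7.45 against 5.67 to 6.32 in the other adjacent livers, 5.37 to 6.68 in controls and 6.01 to 7.71 in tumours. The 9 B cell markers averaged 3.92 against 3.60 to 3.72 in the other adjacent livers, 3.59 to 4.14 in controls and 3.53 to 3.81 in tumours, and Cd79a, Ms4a1, Cr2 and Fcer2a lay below the median of all values on every array. The 10 dendritic cell markers averaged 4.25 against 4.07 to 4.13 in the other adjacent livers, 4.13 to 4.46 in controls and 3.92 to 4.61 in tumours, with Xcr1, Cd209a and Clec10a below that median throughout. The part of these cells in the class II levels was not tested.

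Within mice that gave both tissues, H2-Aa, H2-Ab1, H2-Eb1, Cd74, H2-DMa, H2-DMb1 and Ciita had higher values in the tumour of mice 81, 123 and 124 and lower ones in the mean tumour of mouse 121. Over all 13 class II members, 12 were higher in the tumour of mouse 81, 8 in that of mouse 123, 12 in that of mouse 124 and 2 in the mean tumour of mouse 121. The share of all genes higher in the tumour was not computed mouse by mouse, so that these counts have no background beside them. Of the 13, 5 lay below the median of all values on every array. H2-Ob, near background, was lower by the most in mouse 123, with a difference of -1.82. For Cd74 the tumour minus adjacent difference was 2.10 in mouse 81, 1.99 in mouse 123, 1.37 in mouse 124 and -0.65 in mouse 121. For H2-Aa the differences were 2.72, 1.98, 1.51 and -0.80 in the same order. Members with a higher value in the tumour of all 4 mice numbered 4 (H2-M3, H2-Oa, H2-Q1 and Tapbp), 8% of the members where all genes gave 9.97%. Members with a lower value in all 4 were Erap1, H2-Ke6, H2-M10.1 and H2-Q10, where all genes gave 13%.

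The peptide exchange factor H2-DM is a pair of H2-DMa with a beta chain from H2-DMb1 or H2-DMb2. H2-DMa measured 6.83, 5.66 and 4.51 in controls 10, 11 and 12, 5.40, 7.48, 4.20, 5.22 and 5.39 in the adjacent livers, and 5.77, 6.04 and 6.73 as the lowest, median and highest tumour. Control 10 was thus higher than every tumour but 121_3, at 7.33, and the groups overlapped. Tumours exceeded adjacent livers by 0.62 (SE 0.49, adjusted p = 0.600 by limma), and 1.10 without adjacent 121 (SE 0.38, adjusted p = 0.181). H2-DMb1 measured 6.10, 5.47 and 4.56 in the controls, 5.05, 7.06, 5.21, 5.32 and 5.15 in the adjacent livers, and 5.28, 5.89 and 6.37 as the lowest, median and highest tumour. The difference was 0.31 (SE 0.36, adjusted p = 0.737 by limma), and 0.68 without adjacent 121 (SE 0.26, adjusted p = 0.219). The controls spread widely here, and in the same animals the macrophage and Kupffer cell list averaged 8.82 in control 10, 6.33 in control 11 and 5.58 in control 12. For H2-Aa, H2-Ab1, H2-Eb1 and Cd74 the highest control was instead control 11. The part of these cells in the spread of the controls was not tested.

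Ciita, the transactivator of class II genes, measured 5.19, 5.68 and 5.37 in the controls, 5.42, 5.61, 5.10, 5.20 and 5.27 in the adjacent livers, and 5.01, 5.51 and 5.67 as the lowest, median and highest tumour. Its group means lay between 5.32 and 5.46, and the groups overlapped. Over the 13 class II members the median tumour minus adjacent difference was 0.26, with 9 above 0, beside a median of -0.03 over all genes. Without adjacent 121 the class II median was 0.36 and that of all genes -0.04.

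The tumours differed among themselves. The mean of H2-Aa, H2-Ab1, H2-Eb1 and Cd74, set against the control mean, was highest in tumours 81 (2.15) and 121_3 (2.12). Tumours 90, 121, 124, 123 and 121_2 followed at 1.63, 1.55, 1.33, 1.27 and 1.17, and tumour 93 stood at 0.31. On that scale the controls ran from -0.83 to 0.72, adjacent 121 stood at 2.28, and the other adjacent livers ran from -0.49 to 0.08. Tumour 93 was thus the 1 tumour within the range of the controls. Mouse 121 carried tumours that differed by 0.77 for H2-Aa, 1.11 for Cd74 and 1.82 for H2-DMb1, the last from 5.16 in tumour 121 to 6.99 in tumour 121_3. Tumour 121_3 had the highest value of all 8 tumours in 6 of 13 class II members (46.2%), where it was highest for 9.12% of all genes.

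**Figure D3:**
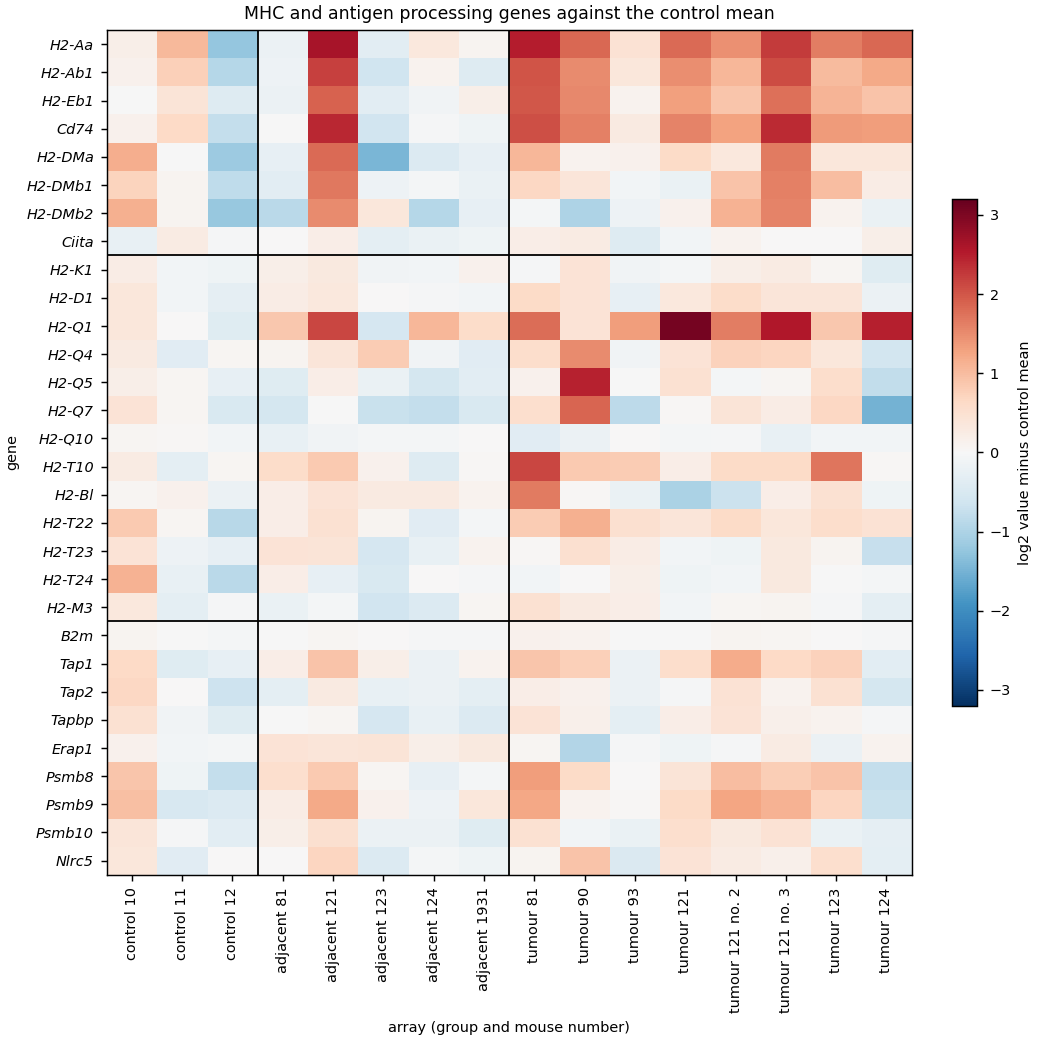
Log2 value minus the control mean (colour scale) for members of the 3 classes (rows) on all 16 arrays (columns), with lines between the groups and the classes. The block of H2-Aa, H2-Ab1, H2-Eb1 and Cd74 is dark in adjacent 121 and in the tumours other than tumour 93, and H2-Q10 and B2m are pale throughout.

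The 13 macrophage and Kupffer cell markers did not follow one pattern across the same tumours. Their tumour minus adjacent differences were above 0 in 7 and below 0 in 6, with a median of 0.18. At an unadjusted p under 0.05, 3 were lower and 0 higher in tumours, where all genes gave 8.32% and 6.95%. Cd68, a lysosomal macrophage protein, measured 9.24 in tumour 81 and 7.12 in tumour 93, the highest and lowest of the 8 tumours, and 6.65 to 8.32 in adjacent livers, with a difference of 0.94 (SE 0.49, adjusted p = 0.390 by limma). C1qb, a complement chain, measured 8.48 in tumour 121_3 and 8.43 in tumour 81, the 2 highest tumours, and 7.32 in tumour 93, the lowest. Its difference was 0.50 (SE 0.45, adjusted p = 0.655 by limma). Both were named after their values were seen. Vsig4, a complement receptor of resident macrophages, measured 2.86, 3.36, 4.49 and 3.78 in tumours 81, 90, 121 and 123 and 7.60, 7.89, 8.96 and 7.13 in tumours 93, 121_2, 121_3 and 124. The 2 tumours with the highest class II mean, 81 and 121_3, thus lay at opposite ends for Vsig4, whereas both were high for C1qb. The part of these cells in the class II levels was not tested. Its tumour minus adjacent difference was -2.52 (SE 0.91, adjusted p = 0.198 by limma), and that of Clec4f, a Kupffer cell lectin, was -1.85 (SE 0.59, adjusted p = 0.150). Itgax, the CD11c integrin of dendritic cells and some macrophages, measured 5.65 in tumour 81, 4.90 in tumour 123 and 3.78 to 4.33 in the other tumours, against 3.39 to 4.35 in adjacent livers. Its difference was 0.80 (SE 0.30, adjusted p = 0.216 by limma).

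The classical class I heavy chains H2-K1 and H2-D1 and B2m overlapped between the 3 groups, with small differences between the group means. H2-K1 measured 10.36, 10.02 and 9.97 in the controls, 10.30, 10.43, 10.01, 10.02 and 10.24 in the adjacent livers, and 9.73, 10.12 and 10.55 as the lowest, median and highest tumour. The groups overlapped, with tumour 124 lowest and tumour 90 highest of all arrays. Tumours minus adjacent livers gave -0.07 (SE 0.14, 95% interval -0.37 to 0.23, adjusted p = 0.858 by limma). H2-D1 measured 12.16, 11.73 and 11.52 in the controls, 12.03, 12.15, 11.81, 11.76 and 11.72 in the adjacent livers, and 11.54, 12.21 and 12.41 as the lowest, median and highest tumour. Tumours 93 and 124 were the low ones, at 11.54 and 11.61, whereas 5 of the 8 tumours lay above every control and every adjacent liver. The tumour minus adjacent difference was 0.15 (SE 0.17, 95% interval -0.22 to 0.52, adjusted p = 0.743 by limma), and the tumour minus control difference 0.23. H2-K2, grouped with them and a transcribed pseudogene in the reference, averaged 6.70 in controls, 6.75 in adjacent livers and 6.62 in tumours. B2m, the light chain of every class I molecule, measured 12.61, 12.51 and 12.46 in the controls, 12.52, 12.58, 12.53, 12.49 and 12.49 in the adjacent livers, and 12.49, 12.55 and 12.68 as the lowest, median and highest tumour. Its difference was 0.05 (95% interval -0.10 to 0.20, adjusted p = 0.798 by limma), at levels close to the highest value of any gene, 12.85. How far the arrays can show a difference at such levels, which H2-D1 neared at 12.41, was not tested.

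Among the class Ib genes, H2-Q1 had the smallest unadjusted p against controls. It measured 5.29, 4.94 and 4.53 in the controls, 5.78, 7.05, 4.40, 5.97 and 5.50 in the adjacent livers, and 5.36, 6.48 and 7.41 as the lowest, median and highest tumour by mouse. All 8 tumours lay above all 3 controls, with 7.99 in tumour 121, 7.48 in tumour 121_3 and 7.41 in tumour 124. The tumour minus control difference was 1.56 (SE 0.51, 95% interval 0.46 to 2.65, adjusted p = 0.218 by limma). It was the 1 member of 50 whose tumours and controls did not overlap in the higher direction, where 2.11% of all genes did so, and 0 members did in the lower direction (3.08%). Against adjacent livers the difference was 0.74 (SE 0.44, adjusted p = 0.457).

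Other class Ib members stood out in single tumours and are named here after their values were seen. H2-Q7, which encodes a Qa-2 antigen anchored in the membrane by a lipid, measured 8.64 in tumour 90 and 5.28 in tumour 124, and 5.94 to 7.45 in the other tumours, against 6.02 to 6.77 in adjacent livers and 6.29 to 7.21 in controls. Its SD over the tumours of the 6 mice, 1.19, exceeded that of 98.5% of all genes. H2-Q5, a transcribed pseudogene in the reference, measured 7.44 in tumour 90 and 4.18 to 5.55 in the other tumours. H2-Q4 measured 6.13 in tumour 90 and 4.02 to 5.35 in the others. The Q genes are near copies of each other, and how far their probe sets share signal, or differ by haplotype, was not tested. H2-Q10, a secreted class I molecule made by hepatocytes, measured 11.98, 11.96 and 11.83 in the controls and 11.56 to 11.94 over the other 13 arrays.

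H2-T22, whose product can be bound by gamma delta T cells, and its relative H2-T10, a transcribed pseudogene in the reference, were at an unadjusted p under 0.05 in both comparisons of tumours. H2-T10 measured 5.30, 4.74 and 5.11 in the controls and 5.64, 5.88, 5.20, 4.64 and 5.08 in the adjacent livers, and it reached 7.18 in tumour 81 and 6.76 in tumour 123. The other 6 tumours gave 5.09 to 5.89. Its tumours exceeded adjacent livers by 0.76 (SE 0.33, adjusted p = 0.284 by limma), and the adjusted p against controls was 0.301. H2-T22 measured 8.17, 7.38 and 6.44 in the controls, 7.55, 7.82, 7.42, 6.95 and 7.26 in the adjacent livers and 7.68 to 8.48 in the tumours. Control 10 was above 7 of the 8 tumours. The tumour minus adjacent difference of H2-T22 was 0.59 (SE 0.25, adjusted p = 0.280 by limma). H2-Bl, also a transcribed pseudogene in the reference, measured 7.36 in tumour 81 and 4.68 to 6.18 in the other tumours. The 12 M region genes measured 1.94 to 5.28, and the median tumour minus adjacent difference over all 27 class I members was -0.01, beside -0.03 over all genes.

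**Figure D4:**
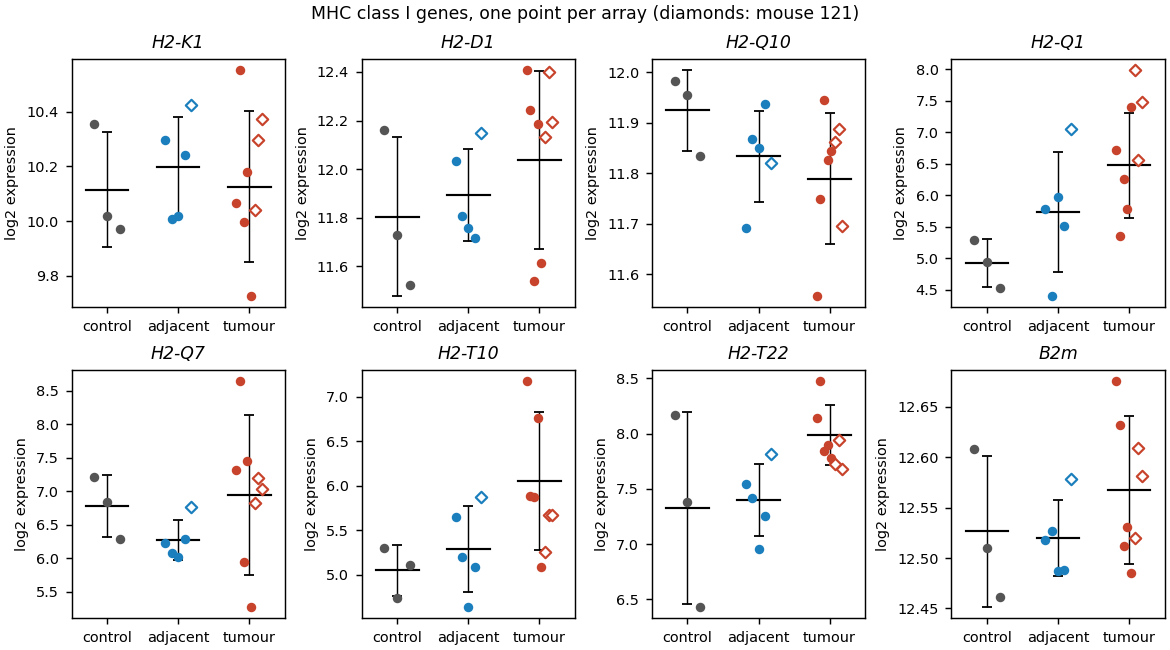
Log2 expression (vertical axis, a separate range for each gene) of class I genes and B2m in controls, adjacent livers and tumours, 1 point per array, with diamonds for mouse 121, a bar for the mean over mice and whiskers for the SD. H2-K1, H2-D1, H2-Q10 and B2m overlap between groups, and in H2-Q1 all 8 tumours lie above the 3 controls.

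Erap1, the peptidase that trims class I peptides in the endoplasmic reticulum, had the smallest adjusted p of any member in tumours against adjacent livers. It measured 8.21, 7.98 and 8.01 in the controls, 8.50, 8.46, 8.48, 8.25 and 8.39 in the adjacent livers, and 7.12, 8.06 and 8.17 as the lowest, median and highest tumour by mouse. Every adjacent liver lay above every control, and averaged over mice the tumours lay below the adjacent livers, although tumour 121_3, at 8.33, exceeded adjacent 124. The lowest value was that of tumour 90. The tumour minus adjacent difference was -0.51 (SE 0.17, 95% interval -0.87 to -0.16, adjusted p = 0.154 by limma), and it was below 0 in all 4 paired mice. The adjacent minus control difference was 0.35 (SE 0.20, adjusted p = 0.999). Erap1 was the 1 member of 50 lower in tumours without overlap between mice, where 1.11% of all genes were. Erap1 and H2-M10.1 were the 2 members of 50 with every adjacent liver above every control, where 2.18% of all genes were, and 0 members had every adjacent liver below every control (2.04%). H2-M10.1 measured 3.14 at most on any array.

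The peptide transporter, its partner Tapbp and the immunoproteasome overlapped between the 3 groups. Tap1 measured 7.50, 6.49 and 6.60 in the controls, 7.08, 7.79, 7.06, 6.68 and 6.97 in the adjacent livers, and 6.51, 7.61 and 7.76 as the lowest, median and highest tumour. Tap2 measured 6.03, 5.39 and 4.71 in the controls, 5.06, 5.67, 5.14, 5.19 and 5.05 in the adjacent livers, and 4.81, 5.53 and 5.87 as the lowest, median and highest tumour. Both were lowest among tumours in tumour 124. Tapbp, which holds class I molecules at the transporter, measured 8.21, 7.62 and 7.35 in the controls, 7.72, 7.79, 7.19, 7.49 and 7.29 in the adjacent livers, and 7.42, 7.87 and 8.16 as the lowest, median and highest tumour. Its tumour minus adjacent difference was 0.34 (SE 0.18, adjusted p = 0.383 by limma) and was above 0 in all 4 paired mice, by 0.21 to 0.66.

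The immunoproteasome subunits replace the constitutive catalytic subunits under interferon gamma. Psmb8 measured 7.96, 6.94 and 6.32 in the controls, 7.63, 7.92, 7.14, 6.82 and 7.02 in the adjacent livers, and 6.30, 7.75 and 8.42 as the lowest, median and highest tumour. Psmb9 measured 9.85, 8.37 and 8.46 in the controls, 9.13, 10.11, 9.02, 8.72 and 9.26 in the adjacent livers, and 8.19, 9.29 and 10.13 as the lowest, median and highest tumour. Psmb10 measured 8.46, 8.03 and 7.72 in the controls, 8.25, 8.57, 7.88, 7.88 and 7.68 in the adjacent livers, and 7.78, 7.93 and 8.55 as the lowest, median and highest tumour. In all 3 subunits control 10 led the controls, adjacent 121 led the adjacent livers, and tumour 124 was the lowest tumour. Control 10 exceeded both other controls in all 9 processing genes and in 28 of 50 members, where 28.9% of all genes did. Nlrc5, the transactivator of class I genes, measured 5.74, 5.02 and 5.39 in the controls, 5.40, 6.08, 4.93, 5.33 and 5.26 in the adjacent livers, and 4.92, 5.58 and 6.29 as the lowest, median and highest tumour. The group means of Nlrc5 lay between 5.38 and 5.56.

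**Figure D5:**
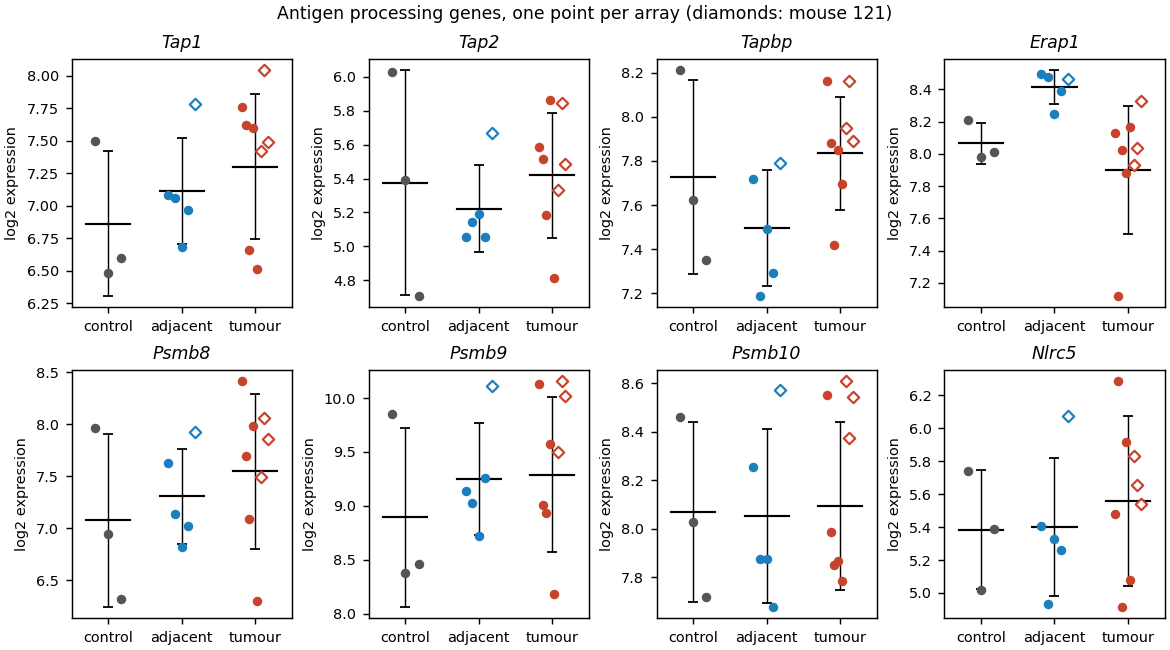
Log2 expression (vertical axis, a separate range for each gene) of antigen processing genes in controls, adjacent livers and tumours, 1 point per array, with diamonds for mouse 121, a bar for the mean over mice and whiskers for the SD. The groups overlap, apart from Erap1, in which the adjacent livers (8.25 to 8.50) lie above the 3 controls and above all tumours but 121_3.

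Tumour 124 had the lowest value of the 8 tumours in 16 of 50 members (32%), where it was lowest for 11.1% of all genes. They included 10 of 27 class I genes and 6 of 9 processing genes, and none of the class II genes. Tumour 124 was nevertheless above every control for H2-Aa, at 8.70, and Cd74, at 9.58. Tumour 93 was the lowest in 5 of 13 class II genes (38.5%), where it was lowest for 12% of all genes. It was the highest in 2 of the 13 (15.4%), where it was highest for 13.8% of all genes.

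H2-Ke6, the enzyme gene within the locus, measured 9.17, 9.30 and 9.40 in the controls, 9.52, 9.35, 9.31, 9.45 and 9.52 in the adjacent livers, and 8.81, 9.00 and 9.52 as the lowest, median and highest tumour. It was named after its values were seen. The highest tumour was 93, and 6 of 8 tumours lay below every adjacent liver. Tumours minus adjacent livers gave -0.35 (SE 0.13, adjusted p = 0.207 by limma). Without tumour 93 it was -0.44 (SE 0.11, adjusted p = 0.0492), the 1 member called in any fit that left out an animal, while 3.19% of all genes were called in that fit.

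Genes that serve the pathway from outside the member list were taken as lists, and none of their genes passed the adjusted threshold in tumours against adjacent livers. Their counts at an unadjusted p under 0.05 stand beside 15.3% of all genes in either direction, 6.95% higher and 8.32% lower. Of 6 class I loading chaperones, 5 proteasome activator and constitutive subunits and 5 cytosolic peptidases, 0 had an unadjusted p under 0.05, with median differences of 0.06, 0.02 and 0.10. The smallest p-values in these lists were those of the disulfide isomerase Pdia3 at 0.21 and the glucosidase subunit Ganab at -0.16, the proteasome subunits Psmb7 at -0.13 and Psmb6 at -0.12, and the peptidases Blmh at -0.26 and Thop1 at 0.21. The list of class II endosomal proteases and their reductase held 8 genes, among them the protease inhibitor gene Cst3. Of these 8, 2 had an unadjusted p under 0.05, both higher in tumours, and the median of the list was 0.39. They were the aspartic protease Ctsd at 0.42 (SE 0.13, adjusted p = 0.137 by limma) and the cathepsin Ctsz at 0.37 (SE 0.17, adjusted p = 0.319). Of 16 MHC regulators and interferon gamma signalling genes, 3 had an unadjusted p under 0.05, and the median was 0.01. 2 were higher in tumours, both chains of the interferon gamma receptor, Ifngr2 at 0.76 (SE 0.21, adjusted p = 0.111) and Ifngr1 at 1.10 (SE 0.37, adjusted p = 0.171). The third was lower in tumours, the interferon regulatory factor gene Irf2 at -0.36 (SE 0.14, adjusted p = 0.243). Ifngr1 measured 9.24 in tumour 90 and 6.30 to 7.22 in the adjacent livers. Ifng itself lay below the median of all values on every array, at 2.95 to 3.79.

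Of 13 genes induced by interferon gamma outside the MHC, 1 had an unadjusted p under 0.05, and the median was 0.09, or 0.40 without adjacent 121. It was the chemokine gene Cxcl10, at 1.41 (SE 0.57, adjusted p = 0.246 by limma), which measured 8.90 in tumour 81, 5.41 to 7.06 in the other tumours and 6.62 in adjacent 121. The checkpoint ligand gene Cd274 was next, at 0.53 (SE 0.30, adjusted p = 0.429). Of 15 genes induced by type I interferon, 1 had an unadjusted p under 0.05, the antiviral GTPase gene Mx1 at 1.04 (SE 0.48, adjusted p = 0.321 by limma), with a median of 0.22. Mx1 measured 6.01 in tumour 81, 5.16 in tumour 124 and 3.04 to 3.35 in the other tumours, against 2.65 to 3.31 in adjacent livers. Rsad2 followed at 1.16 (SE 0.57, adjusted p = 0.353), with 9.58 in tumour 81 and 6.02 to 7.74 in the other tumours. Of 6 class I like genes outside the locus, 1 had an unadjusted p under 0.05, the neonatal Fc receptor gene Fcgrt at -0.57 (SE 0.13, adjusted p = 0.0726 by limma), with a median of -0.26. Fcgrt pairs with B2m and recycles albumin and IgG, and the protein C receptor gene Procr was next, at 0.53 (SE 0.27, adjusted p = 0.375).

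The 9 sinusoidal endothelial markers averaged 6.53 to 6.73 in controls, 6.42 to 6.74 in adjacent livers and 4.89 to 6.68 in tumours. Against adjacent livers 5 of them were lower in tumours at an unadjusted p under 0.05, where 8.32% of all genes were, and 0 were higher (6.95%). Among the 5 were Stab2 at -1.31 (SE 0.39, adjusted p = 0.135 by limma) and Clec4g at -2.41 (SE 0.68, adjusted p = 0.115). Sinusoidal endothelium can itself carry class II molecules, and its part in the values above was not tested. The 5 plasma cell markers averaged 4.09 to 4.55 in controls, 4.25 to 4.63 in adjacent livers and 3.97 to 4.82 in tumours. The 4.82 was that of tumour 93, where 1 marker, Derl3, measured 8.09, against 4.90 to 6.30 in the other tumours. The smallest p-values of the list were those of Pou2af1 at -0.43 (SE 0.13, adjusted p = 0.132 by limma) and Tnfrsf17 at -0.27 (SE 0.16, adjusted p = 0.454). In the remaining cell type lists the tumour minus adjacent differences with the smallest p were, beside those given above, -0.59 for Clec9a of dendritic cells, -0.32 for Blk and -0.22 for Pax5 of B cells, 0.46 for Klrd1 and -0.14 for Cd8b1 of T and NK cells, and 0.16 for Ahsg and -0.12 for Ttr of hepatocytes, with adjusted p-values from 0.238 to 0.653 by limma.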

How the data were processed

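Each array gave 1 value per probe set from RNA of whole liver or tumour. RNA was extracted with Trizol, per the labels' protocols. The deposited values are log2 expression. The tools listed in the submitters' processing notes are Partek and RMA, with neither role nor version. The chip definition and the build behind it: not given in the sources used here. RMA subtracts background, equalises the arrays' distributions and summarises probes, so that a shift of all genes on an array is not retained. Of 24479 probe sets, 23281 had 1 gene symbol, and 2 symbols with several probe sets were reduced to 1 each, leaving 23279 genes. The 3 tumours of mouse 121 were averaged, and all 3 groups (14 values) were fitted together with limma 3.58.1 in R 4.3.3 (lmFit, eBayes with an intensity trend), Benjamini-Hochberg adjusted over all genes, with a threshold of 0.05; the limma script was tested on simulated data. Fold values are 2 to the power of a log2 difference.

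Members and lists were chosen with earlier results of these data known. Each control and adjacent value, and the lowest, median and highest tumour by mouse, were given for 18 genes of the pathway and for any other member with an adjusted p under 0.05 or an unadjusted p under 0.01; from each other list, the 2 genes with the smallest p in tumours against adjacent livers. Same-numbered samples come from the same mouse: in 4 such pairs the correlation of deviations from the group means was 0.03 to 0.10 (mean 0.08), against -0.01 on average in 26 pairs of different mice. Alternatives were normalization, a filter on low values, array weights, mouse as a block and leaving out each sample. Members of the table with no promoter window were not analysed for sequence.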

Additional observations from a re-analysis of the deposited data

Results flagged for a closer look

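Dixon's rule for a value far from the rest of its group was applied to 38 groups (the adjacent livers and the tumours for 19 named members), and chance flags about 1 in 20 groups. It picked out 7 values, 6 of them in the adjacent liver of mouse 121. There H2-Aa measured 9.49, with the nearest adjacent liver at 7.19. H2-Ab1 measured 10.14 against 8.06, H2-Eb1 8.20 against 6.48, Cd74 10.64 against 8.21, H2-DMb1 7.06 against 5.32 and Tap2 5.67 against 5.19. The remaining value was Erap1 in tumour 90, at 7.12, with the nearest tumour at 7.88. Genes of 1 liver are not independent, so that the 6 values describe 1 sample.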

How the results depend on the processing

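The count of members past the threshold was 0 in adjacent livers against controls and in tumours against controls under all 23 alternatives for each. In tumours against adjacent livers it was 0 under 23 of 24 alternatives and 1 without tumour 93, so that leaving out 1 sample at a time gave 0 to 1; the member was H2-Ke6 (-0.44, SE 0.11, adjusted p = 0.0492 by limma). With mouse as a random replicate block 0 members passed, and with the 4 paired mice as a fixed replicate block 0 members passed; the pairing changed no call. Over all genes, tumours against adjacent livers gave 36 calls, 5 to 743 when 1 sample was left out, 181 with low values filtered out, 136 with array weights, 206 with the random block, 0 with the fixed block over 4 pairs, 16 after median centring and 23 after quantile normalization. With the filter on low values, which kept 32 members, the class II median was 0.75 in tumours against adjacent livers and 0.83 in tumours against controls. Only 3 controls and 1 probe set per gene limit the precision, and members below the median of all values on every array carry little signal over background.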
